A study of Mus musculus with 35 samples.

Results

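Trimethylation of lysine 27 on histone H3 (H3K27me3) is laid down by the Polycomb repressive complex PRC2, whose catalytic subunits are Ezh2 and Ezh1, and is a mark of silenced genes. UTX, encoded by the X-linked gene Kdm6a, is one of the enzymes that can take this mark off, and it also sits in the complexes that write H3K4me3, the mark of active promoters. Promoters of developmental regulators in embryonic cells often carry both marks at once. The regions described here are the H3K27me3 peaks that were called in female Utx knockout neural crest at places where no wild-type peak was called, named below the fko-only peaks.

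Cranial neural crest cells form much of the face and were sorted by Tomato fluorescence at stage E12.5 from embryos carrying Wnt1-Cre and Rosa-Tomato, alleles that all groups share. The fko group consisted of females with both Utx copies floxed (Utx fl/fl), the mko group of males with the single copy floxed (Utx fl/y), and the wild-type (wt) group of males with Wnt1-Cre and no floxed Utx, so sex and genotype cannot be told apart in fko against wild type. Each histone mark was measured in 3 fko libraries, 1 mko library (mko1) and 3 wild-type libraries, and UTX in 1 library of O9-1, a cultured cranial neural crest line from stage E8.5 with no floxed allele. Wnt1-Cre removes Utx in the crest lineage, and males keep Uty, the related gene on the Y chromosome.

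Of 16701 fko peaks on chromosomes 1 to 19, 14584 overlapped a wild-type peak by at least 1 bp (the shared peaks) and 2117, or 12.7%, did not and form the fko-only set. The opposite set, wild-type peaks with no fko peak on them, held 2928 of 17379 peaks, or 16.8%. Both lists were called by the authors on pooled libraries, so whether a peak is fko-only was decided by the 3 fko and the 3 wild-type libraries together. The fko level is therefore given as a description with no test. The mko1 library, the H3K4me3 libraries and the UTX library had no part in the choice. The comparison of mko1 with wild type in H3K27me3 nevertheless uses the wild-type libraries that did.

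Counts summed over autosomal peak rows numbered 15070248 to 18248985 per H3K27me3 library and 22221560 to 39366680 per H3K4me3 library, and 2708269 in the UTX library. The histone rows come from both genotypes' lists, so reads at a site called in both enter once for each list. This holds for these sums, and for the CPM values and shares of all counts or rows built on them. In RNA of the same cell type (2 libraries a group), Kdm6a was at 56.2 ± 9.19 CPM in fko, 35.2 ± 6.25 CPM in mko and 51.4 ± 5.75 CPM in wild type (SD, n = 2 each). A count over the whole gene does not check a deletion of some exons. The sex genes followed the labels, with Uty at 0.324, 35.9 and 38.5 CPM in fko, mko and wild type, and Xist at 1888 CPM in fko, 1.04 in mko and 1.42 in wild type. Ezh2 averaged 184 CPM in fko, 200 in mko and 215 in wild type, and Kdm6b, the other main H3K27 demethylase gene, 160, 153 and 245 CPM. All 7 crest and mesenchyme markers, Twist1, Prrx1 and Sox10 among them, stood above 1 CPM in all 6 RNA libraries. The summed level of 3 neural tube markers was 16.6 to 22.2 CPM in fko, 19.4 to 21.4 in mko and 52.7 to 61.7 in wild type, that of 3 leukocyte markers 3.62 to 4.35, 4.04 to 4.33 and 6.25 to 7.79, and that of 3 skeletal muscle markers 0.454 to 0.613, 1.07 to 1.65 and 2.30 to 2.34. Other marker lists were not highest in wild type throughout. The sum of 3 epithelial markers was 7.67 to 9.54 CPM in fko, 8.33 to 8.68 in mko and 6.75 to 8.15 in wild type. Endothelial markers summed to 7.30 to 8.37 CPM in fko and 6.64 to 10.5 in wild type. Erythroid markers summed to 2.88 to 3.57 CPM in fko, 2.67 to 10.8 in mko and 2.07 to 4.73 in wild type. The part of these other cells in the chromatin values was not tested.

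The fko-only peaks were short and weak. Their width was 729 bp at the median and ran from 315 to 4369 bp, against a median of 2494 bp and a maximum of 196815 bp for the shared peaks. None of the fko-only peaks reached 10 kb, while 986 shared peaks did. The authors' −log10 q, the confidence MACS2 gave each peak, ran from 1.01 to 4.40 with a median of 1.35 in the fko-only set, against a median of 3.70 in the shared set. A total of 1935 fko-only peaks (91.4%) lay under a −log10 q of 2 and 13 reached 3. The wild-type-only peaks were of the same kind, with a median width of 733 bp and a median −log10 q of 1.51.

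The distance from a fko-only peak to the nearest wild-type peak of any kind had a median of 10252 bp, 780 peaks (36.8%) lay less than 5 kb from one, and 271 (12.8%) lay 100 kb or more away. A shared fko peak, one called in both genotypes, lay less than 5 kb from 629 of them (29.7%). They occurred on every autosome, at 10.4% of the fko peaks of chromosome 19 and up to 16.7% of those of chromosome 13. Most stood alone, since 1787 had no other fko-only peak within 10 kb, while 141 pairs and 15 longer runs held 330 of them.

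Before normalisation the depth behind one of these peaks was small, with medians of 24, 23 and 21 counts in fko1, fko2 and fko3, 19 counts in mko1, and 17, 18 and 16 counts in wt1, wt2 and wt3. The median level over the fko-only peaks was 1.78, 1.80 and 1.84 CPM per kb (counts scaled to a library size of 1000000, divided by the peak's width) in the 3 fko libraries, 1.49 in mko1, and 1.33, 1.38 and 1.38 in the 3 wild-type libraries. The mko1 median thus stood above all wild-type medians and below all fko medians. Over the shared peaks the 7 medians stayed between 2.66 and 2.75 CPM per kb.

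**Figure D1:**
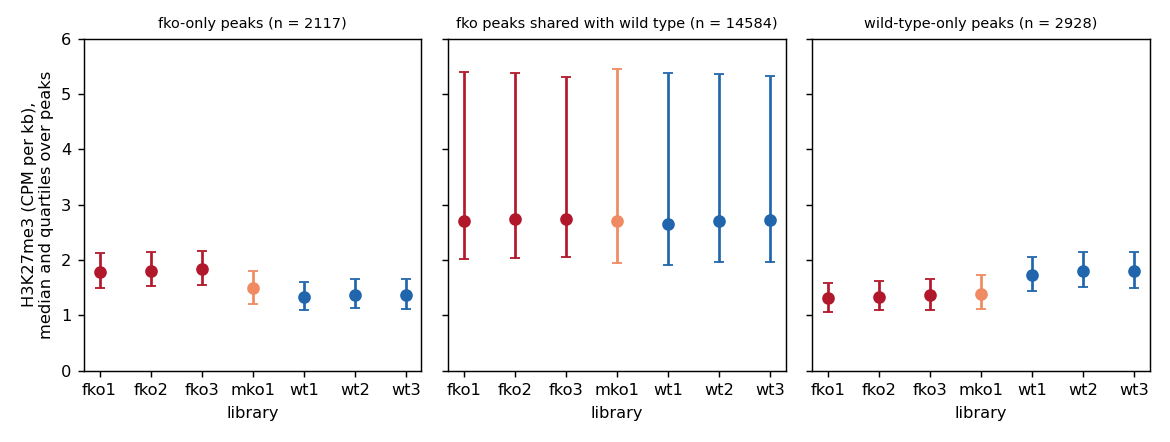
H3K27me3 level (CPM per kb) of fko-only peaks, shared fko peaks and wild-type-only peaks in each library. Points are medians over peaks and bars run between the quartiles; the fko-only peaks have medians of 1.78 to 1.84 in fko, 1.49 in mko1 and 1.33 to 1.38 in wild type, and the wild-type-only peaks run the other way.

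On the log2 scale of the edgeR fit, the median difference of the fko-only peaks was 0.39 for fko minus wild type, 0.11 for mko1 minus wild type and -0.28 for mko1 minus fko. All 3 fko libraries lay above all 3 wild-type libraries in 742 fko-only peaks (35.0%, against 19.3% of all 34080 autosomal H3K27me3 peak rows), a share that the choice itself raises. The opposite set gave -0.40 for fko minus wild type and -0.34 for mko1 minus wild type. Shared peaks with a −log10 q under 2, which had fko medians of 1.83 to 1.87 CPM per kb but wild-type medians of 1.78 to 1.86 and 33 to 37 counts, had medians of 0.02 and -0.05 for the same 2 differences. The fko and mko1 differences share the wild-type libraries. With these 3 libraries low in fko-only peaks and high in wild-type-only peaks by the way the sets are defined, the sign of an mko1 median is not independent of the choice.

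**Figure D2:**
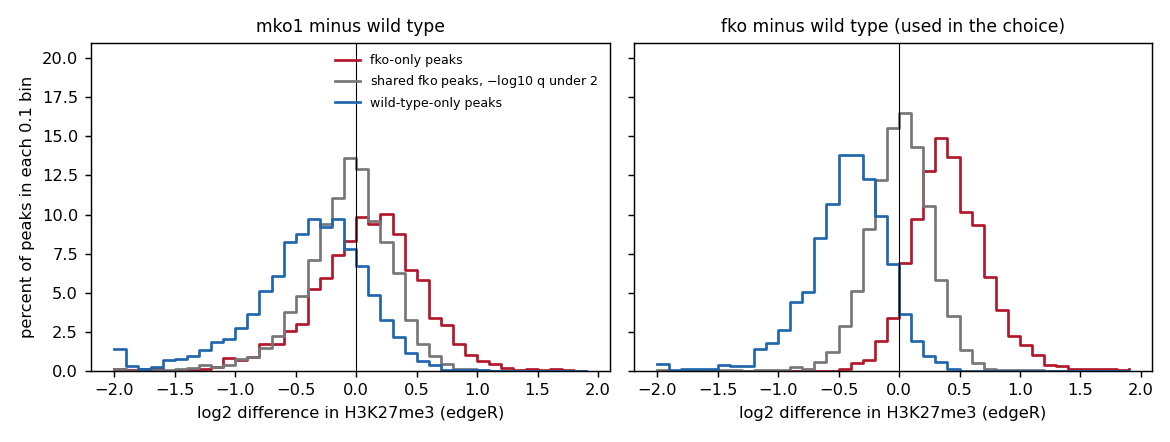
Distribution of the log2 difference in H3K27me3 for mko1 minus wild type (left) and fko minus wild type (right) over fko-only, weak shared and wild-type-only peaks, as percent of peaks in bins of 0.1, with values beyond the axis placed in the end bins. In mko1 the fko-only peaks centre at 0.11 and the weak shared peaks at -0.05, and the 2 distributions overlap over most of their range.

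Single peaks that passed the test in mko1 were few. Of 2117 fko-only peaks 2116 passed the filter on low counts, and the edgeR quasi-likelihood test over all autosomal rows (Benjamini-Hochberg adjusted p of 0.05) called 28 of them different from wild type, or 1.32%, against 6.94% of all rows tested. They comprised 25 higher (1.18%) and 3 lower (0.142%) in mko1, where the whole table had 4.28% higher and 2.66% lower. All rows held more counts, with medians of 77 to 89 per library. Shared peaks with a −log10 q under 2 had 0.512% higher and 1.10% lower, or 1.61% called. Wild-type-only peaks had 0 higher and 3.59% lower. The choice sets the wild-type level of fko-only and wild-type-only peaks, and no difference between these shares was tested. At an unadjusted p of 0.05, 134 of the 2116 fko-only peaks were higher and 37 lower. The whole table had 3547 higher and 2922 lower of 34078 rows, so both shares were smaller in the fko-only set. DESeq2 called 1 higher and 0 lower, against 1.98% of all rows. Of the 11 peaks named below that edgeR called, 10 had no adjusted p from DESeq2, so a missing call there is not a failed test. How many of the remaining fko-only peaks lacked one was not counted, and nothing is concluded from the DESeq2 share. The fit had 1 mko library, whose spread was taken from the fko and wild-type libraries. The labels do not say whether libraries came from separate embryos, so a p measures the spread between libraries only.

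By plain order of the libraries, mko1 was above all 3 wild-type libraries in 788 fko-only peaks (37.2%, against 31.6% of all rows) and below all 3 in 366 (17.3%, against 30.5%). Against fko, mko1 was below all 3 libraries in 1086 peaks (51.3%, against 30.0% of all rows) and above all 3 in 174 (8.22%, against 28.3%). The edgeR test placed 19 fko-only peaks lower and 0 higher in mko1 than in fko, 0.898% against 2.84% of all rows called in either direction and 1.41% called lower. DESeq2 called 0, against 0.695% of all rows. The choice of peaks favours both an mko1 value lower than fko and one higher than wild type. In wild-type-only peaks, mko1 was above all 3 wild-type libraries in 7.72% and below all 3 in 53.9%.

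The 25 peaks higher in mko1 had log2 differences of 0.65 to 1.77 and a median width of 1227 bp, and lay on 12 chromosomes. An H3K4me3 peak overlapped 13 of them and a UTX peak 6. The 5 with the smallest p are described next, with coordinates on mm9, 1-based. In all 5, the choice of peaks and this pick by p both favour a gap between knockout and wild-type libraries. Genes are not assigned, since no annotation of this build was at hand.

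The clearest case was chr1:163370182-163374321, a region of 4140 bp without an H3K4me3 or UTX peak and 187316 bp from the nearest wild-type H3K27me3 peak. It had 8.87, 10.1 and 10.0 CPM in fko, 8.65 CPM in mko1 and 3.15, 2.65 and 2.60 CPM in wild type. Every knockout library was far above every wild-type library, a gap that the selection favours, and the groups did not overlap. The mko1 difference was 1.62 ± 0.176 (log2, SE; edgeR adjusted p = 4.84e-17), beside a fko difference of 1.78, and it was the one fko-only peak that DESeq2 also called.

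At chr4:132648750-132651681, 2932 bp wide and overlapped by both an H3K4me3 and a UTX peak, levels were 6.16, 5.49 and 4.45 CPM in fko, 4.32 CPM in mko1 and 1.67, 2.54 and 1.43 CPM in wild type. Here mko1 lay just under the lowest fko library and above all wild-type libraries, with a log2 difference from wild type of 1.19 ± 0.235 (edgeR adjusted p = 3.95e-05). The region chr7:80739439-80742093, also under both an H3K4me3 and a UTX peak, had 5.20, 4.98 and 6.03 CPM in fko, 5.31 CPM in mko1 and 2.20, 3.29 and 2.47 CPM in wild type. The mko1 value fell inside the fko range, and its log2 difference from wild type was 0.99 ± 0.207 (edgeR adjusted p = 0.00012). DESeq2 gave no adjusted p for either region.

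A remote region, chr2:15771444-15773173, lay 505362 bp from any wild-type peak and carried no other peak. Its levels were 3.05, 2.66 and 3.30 CPM in fko, 2.13 CPM in mko1 and 0.417, 0.865 and 0.779 CPM in wild type, on 7 to 15 wild-type counts. Again the knockout and wild-type libraries did not overlap, and mko1 exceeded wild type by 1.63 ± 0.355 (edgeR adjusted p = 0.000294). The shortest of the 5, chr8:126131184-126131503, is 320 bp wide and had 2.32, 2.43 and 1.84 CPM in fko, 2.48 CPM in mko1 and 0.774, 1.33 and 0.585 CPM in wild type. In this region mko1 was the highest of the 7 libraries, with a difference of 1.44 ± 0.323 (edgeR adjusted p = 0.000447). Neither region had an adjusted p from DESeq2.

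In the 3 peaks lower in mko1, mko1 was the lowest of the 7 libraries. At chr12:28222499-28223095 the level was 1.13, 1.07 and 1.08 CPM in fko, 0.288 CPM (5 counts) in mko1 and 0.774, 1.21 and 1.23 CPM in wild type, so mko1 alone was low and fko and wild type overlapped. The mko1 difference from wild type was -1.87 ± 0.575 (edgeR adjusted p = 0.0232). At chr15:74044591-74045204 it was -1.66 ± 0.542 (edgeR adjusted p = 0.0361), with 1.24, 1.41 and 1.52 CPM in fko, 0.346 CPM (6 counts) in mko1 and 1.01, 0.98 and 1.36 CPM in wild type. The other lay on chromosome 18, where mko1 had 0.98 CPM, below the 1.30 to 2.35 CPM of fko and the 2.08 to 2.21 CPM of wild type, with a difference of -1.12 ± 0.353 (edgeR adjusted p = 0.0276). None of the 3 had an adjusted p from DESeq2. Without wt3 each lost its edgeR call, with differences of -1.76 on chromosome 12, -1.51 on chromosome 15 and -1.10 on chromosome 18, and the first also did so without wt2, at -1.76.

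**Figure D3:**
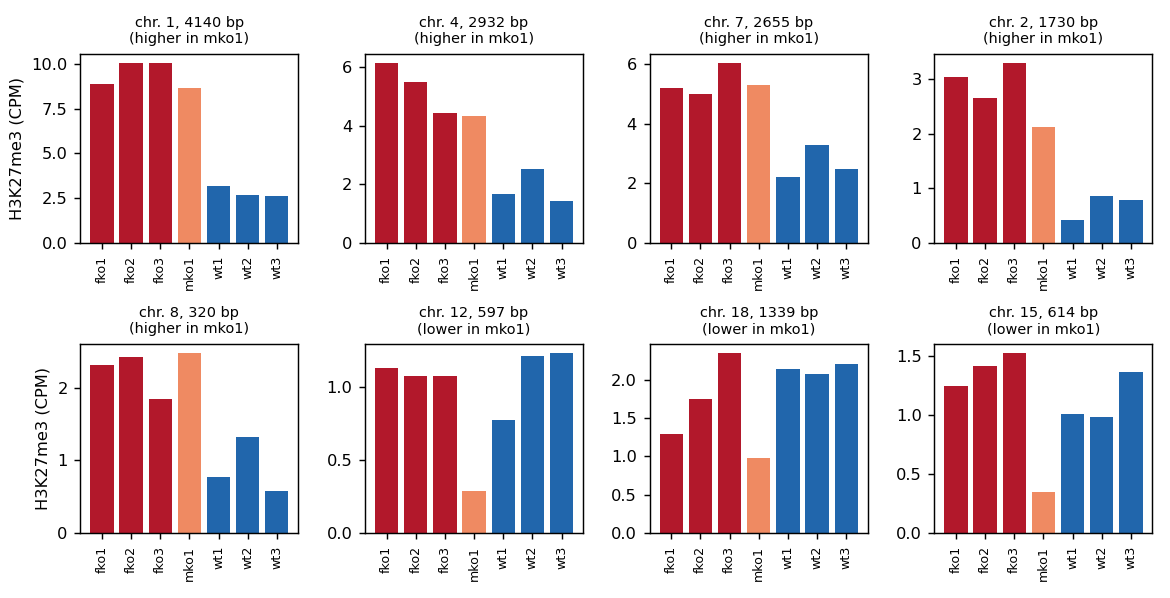
H3K27me3 level (CPM) in each library of the 5 fko-only peaks higher in mko1 with the smallest p and of the 3 lower in mko1, by chromosome and width. In the first 5 panels mko1 stands with the fko libraries above all wild-type libraries, and in the last 3 it is the lowest library.

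The peaks in which the authors' peak caller had most confidence were not alike in mko1. The fko-only peak with the highest −log10 q, 4.40, was chr2:164186440-164187517 with 2.43, 3.05 and 3.37 CPM in fko, 3.11 CPM in mko1 and 1.19, 1.73 and 1.36 CPM in wild type. Its mko1 difference was 1.12 ± 0.275 (edgeR adjusted p = 0.002). The next, chr10:59419417-59421269, carried both an H3K4me3 and a UTX peak and had 5.31, 5.43 and 5.21 CPM in fko, 3.92 CPM in mko1 and 1.61, 2.77 and 2.01 CPM in wild type. There mko1 lay between the groups and differed from wild type by 0.87 ± 0.236 (edgeR adjusted p = 0.00663). DESeq2 gave no adjusted p for either peak, nor for the third below. The second lost its call without wt1, at a difference of 0.70. The third, chr2:143982086-143984083, had 5.31, 5.49 and 4.95 CPM in fko, 3.63 CPM in mko1 and 1.84, 2.42 and 2.40 CPM in wild type, a difference of 0.71 ± 0.240 (edgeR adjusted p = 0.0464) that lost its call under 8 alternatives, DESeq2 and the omission of wt1, wt2 or fko2 among them. The fourth, chr15:78409255-78411247, did not pass the test, with 5.20, 5.20 and 4.95 CPM in fko, 3.63 CPM in mko1 and 1.90, 3.0 and 2.66 CPM in wild type (difference 0.52 ± 0.234, edgeR adjusted p = 0.176).

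The widest fko-only peak, chr14:69555593-69559961, had 6.55, 8.09 and 7.11 CPM in fko, 5.25 CPM in mko1 and 4.17, 5.48 and 6.17 CPM in wild type, with an mko1 difference from wild type of -0.00 ± 0.180. It lay 1735 bp from a wild-type peak. Among the 5 widest the mko1 differences ran from -0.16 to 1.62, and only chr1:163370182-163374321 passed the test.

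At the low end of confidence, the fko-only peak with the lowest −log10 q, 1.01, was chr3:150276804-150277871 with 1.58, 1.41 and 1.78 CPM in fko, 1.04 CPM in mko1 and 0.952, 1.27 and 1.17 CPM in wild type. Just outside the rule stood chr11:64782553-64783161, left out because 10 bp of it overlapped a wild-type peak, with 1.30, 1.36 and 1.40 CPM in fko, 0.519 CPM in mko1 and 0.893, 0.692 and 0.715 CPM in wild type. The 2 regions are 1068 and 609 bp wide, so their CPM values are not compared with each other.

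The longest run of fko-only peaks was a group of 5 within 22439 bp at chr1:165042104-165064542, with no wild-type peak between them and a UTX peak over each. The widest of the 5, chr1:165061790-165064542, had 4.80, 4.02 and 4.19 CPM in fko, 3.0 CPM in mko1 and 2.50, 2.83 and 2.60 CPM in wild type. Along the run the mko1 differences from wild type were 0.42, 0.09, 0.32, -0.24 and 0.18 (log2) and none passed the test. One of the 5 also had an H3K4me3 peak. The O9-1 UTX peaks there had authors' fold enrichments of 2.78 to 3.86. They were not separate for each region. The same UTX peak (fold enrichment 2.78, 365 counts) lay over chr1:165055201-165056116, chr1:165057382-165058244 and chr1:165061790-165064542.

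An H3K4me3 peak, from either genotype's list, overlapped 823 fko-only peaks, or 38.9% (95% exact Clopper-Pearson interval 36.8 to 41.0%, counting error only). This compared with 73.5% of shared and 23.8% of wild-type-only peaks. For 606 of the 823 the H3K4me3 peak was in both lists, for 50 in the fko list alone and for 167 in the wild-type list alone. Because wider peaks meet more peaks by length alone, shares were also read at 500 bp to 2 kb, where they were 41.9% for fko-only, 56.7% for shared and 24.1% for wild-type-only peaks. A UTX peak overlapped 162 fko-only peaks, or 7.65% (interval 6.56 to 8.87%), against 21.7% of shared and 6.63% of wild-type-only peaks. At 500 bp to 2 kb the UTX shares were 7.96%, 14.8% and 6.12%. The intervals take regions as independent, although neighbouring regions can share a peak, and they do not measure spread between libraries. No test was made of these differences, since the sets were chosen from the data.

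Both an H3K4me3 and a UTX peak lay on 120 fko-only peaks and neither on 1252 (59.1%). Of the fko-only peaks with UTX, 74.1% also had H3K4me3, against 96.7% of shared peaks with UTX. The 158 UTX peaks on fko-only regions had a median authors' fold enrichment of 2.08, beside 2.09 over all 21656 autosomal UTX peaks, and a median width of 2835 bp, beside 1485 bp.

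**Figure D4:**
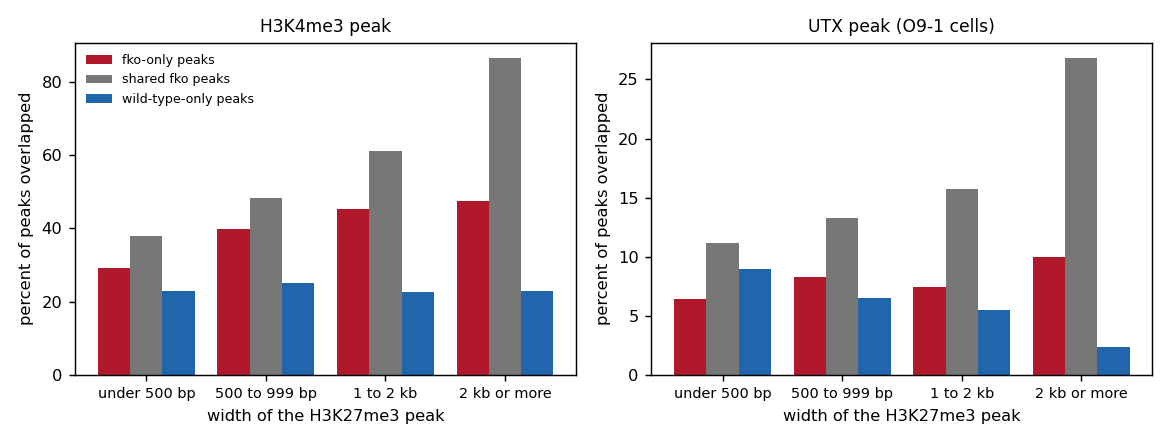
Percent of fko-only, shared and wild-type-only H3K27me3 peaks that overlap an H3K4me3 peak (left) or a UTX peak of O9-1 cells (right), by width of the H3K27me3 peak. In every width class the fko-only bar is below the shared bar.

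The fko-only peaks under the strongest UTX peaks (by −log10 q) had H3K27me3 levels in mko1 that did not differ from wild type beyond the test's threshold. The first, chr19:12076957-12077434 (fold enrichment 5.76), had 0.96, 0.848 and 0.889 CPM of H3K27me3 in fko, 0.865 CPM in mko1 and 0.952, 0.923 and 0.779 CPM in wild type. All 3 groups overlapped there. The next, chr3:86563842-86564625 (fold enrichment 4.76), had 1.24, 1.64 and 1.02 CPM in fko, 0.807 CPM in mko1 and 0.774, 0.807 and 0.715 CPM in wild type, so mko1 stood with wild type. For the 5 regions under the strongest UTX peaks the mko1 differences from wild type ran from -0.55 to 0.22 and none passed the test.

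Splits of the fko-only peaks, chosen after the values were seen, gave the following median log2 differences for mko1 minus wild type. The 823 peaks with H3K4me3 had 0.16, with 13 called higher and 1 lower, and the 1294 without had 0.08, with 12 higher and 2 lower. The 162 peaks with UTX had 0.19, with 6 higher and 0 lower, and the 1955 without had 0.11, with 19 higher and 3 lower. The 182 peaks with a −log10 q of at least 2 had 0.29, with 12 higher and 1 lower, and the 120 peaks of at least 2 kb had 0.20, with 6 higher and 0 lower. Peaks under 500 bp had 0.08. The shares called were 1.70% with and 1.08% without H3K4me3, 3.70% with and 1.13% without UTX, 7.14% at a −log10 q of at least 2 and 5% at 2 kb or more, against 6.94% of all rows, so no class stood far above the table. All rows held more counts than these peaks, and shared peaks with a −log10 q under 2 had 1.61% called. Every class median was above 0, the sign that the choice of peaks favours, as it does the excess of higher over lower calls. The −log10 q used for a split comes from the fko peak call itself. No difference between the classes was tested.

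H3K4me3 at these regions did not take part in the choice. The H3K4me3 table held 1431 peak rows on fko-only regions, 656 from the fko list and 775 from the wild-type list, so a site called in both appears once in each, and 1430 passed the count filter. In fko against wild type, edgeR (adjusted p of 0.05) called 185 of these rows higher (12.9%, against 25.5% of all 89143 tested) and 564 lower (39.4%, against 32.3%, with 57.8% called either way). All 3 fko libraries lay below all 3 wild-type libraries in 590 rows (41.2%, against 33.3% of all rows) and above them in 201 (14%, against 26.7%). The median log2 difference was -0.24, beside -0.08 over all autosomal rows, 0.08 over rows on shared peaks and -0.00 over rows on wild-type-only peaks. In mko1 against wild type, 186 were higher (13%, against 23.3%) and 412 lower (28.8%, against 26%, with 49.3% called either way), with medians of -0.18 and -0.08. Against fko, mko1 had 72 rows higher (5.03%, against 7.25%) and 92 lower (6.43%, against 4.66%), 11.5% in all against 11.9% of all rows. DESeq2 called 19 higher and 29 lower there, against 3.54% of all rows. The list of a row favours a direction in fko, lower for wild-type-list rows and higher for fko-list rows. In fko, 47.6% of wild-type-list rows on fko-only regions were lower, against 42.8% of all wild-type-list rows (medians -0.33 and -0.31). For fko-list rows it was 29.7% against 18.4% (medians -0.13 and 0.06). In mko1 the lower shares were 32.3% against 32.1% in wild-type-list rows and 24.7% against 18% in fko-list rows. No test compared these shares.

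The split between higher and lower calls moved with the tool and the scaling. With no scaling beyond total count, 90 rows were higher and 757 lower in fko, and 88 higher and 619 lower in mko1. With DESeq2 these were 181 and 254 in fko, where 40.3% of all rows were called, and 150 and 189 in mko1, where 31% were. Without scaling factors the median of all rows moved to -0.20 in fko and -0.24 in mko1, and that of the rows on fko-only regions to -0.37 and -0.34. The gap between regions and table was -0.16 in fko and -0.10 in mko1 either way. A change of factors shifts all rows nearly alike, so this gap could hardly move and its steadiness is no check. In a fit of wild-type-list rows alone the gap was -0.02 in fko and -0.00 in mko1.

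The level of an H3K4me3 peak went with the direction of its call across the whole table, so the rows were also read within 4 equal classes of level, a split added after the values were seen. In the lowest class 57.2% of rows on fko-only regions were lower in fko, against 63.8% of all rows, and in the second class 50% against 44.0%. In the third class 34.4% were lower, against 20.1%, and 12% higher, against 25.9%. In the highest class 1.53% were lower, against 1.29%, and 52.0% higher, against 68.0%. The classes pool rows from both lists, and no difference between these shares was tested. For mko1 the third class had 27.4% lower against 18.8%, and the highest class 46.9% higher against 58.6%.

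**Figure D5:**
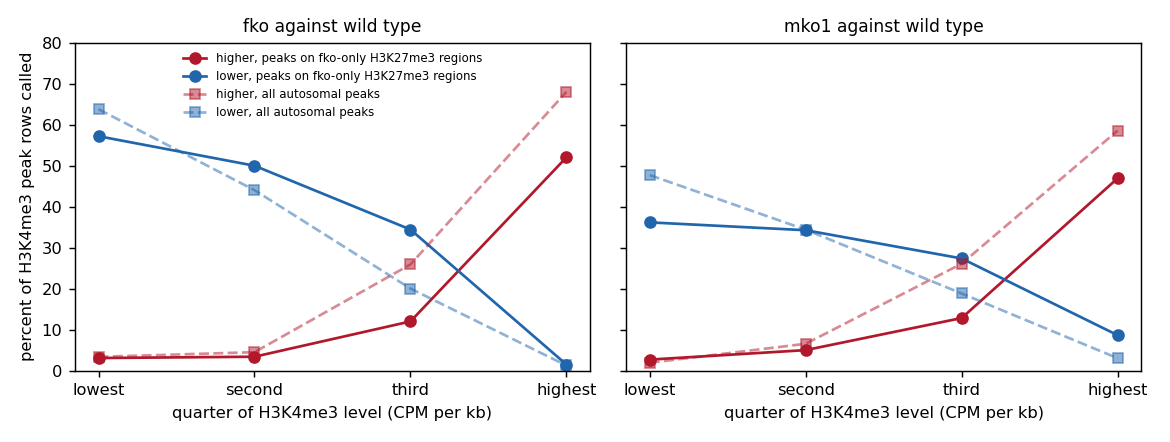
Percent of H3K4me3 peak rows called higher or lower than wild type (edgeR, adjusted p of 0.05) in fko (left) and mko1 (right), by class of H3K4me3 level in CPM per kb. Solid lines are rows on fko-only H3K27me3 regions and dashed lines all autosomal rows; in the third class 34.4% of the solid-line rows and 20.1% of all rows are lower in fko.

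As a share of all autosomal H3K4me3 counts, the rows on fko-only regions held 1.35%, 1.37% and 1.37% in fko, 1.32% in mko1 and 1.44%, 1.47% and 1.46% in wild type. All fko libraries and mko1 lay below all wild-type libraries. The means were 1.36 ± 0.00940% in fko and 1.46 ± 0.0145% in wild type (SD, n = 3 each; two-sided exact permutation p = 0.1, the smallest that 3 against 3 allows). The rows on shared peaks held 35.0 ± 0.104% in fko and 34.8 ± 0.171% in wild type, and those on wild-type-only peaks 1.69% and 1.70%.

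The rows lower in fko with the smallest p were broad H3K4me3 peaks that lay mostly outside the fko-only peak they touched. The row chr9:107808607-107812720, with 0.0771 of its length in the fko-only peak chr9:107809748-107810064, had 12.8, 13.7 and 13.3 CPM of H3K4me3 in fko, 12 CPM in mko1 and 22.9, 23.9 and 21.8 CPM in wild type. Knockout and wild-type libraries were far apart and did not overlap. The log2 differences were -0.78 ± 0.0596 in fko and -0.93 ± 0.0867 in mko1 (edgeR adjusted p = 3.68e-36 and 3.88e-24). H3K27me3 in the small fko-only peak inside it was 0.904, 0.452 and 0.826 CPM in fko, 0.577 CPM in mko1 and 0.595, 0.231 and 0.585 CPM in wild type, and these groups overlapped.

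A similar row, chr5:114246124-114250908, had 29.8, 29.4 and 29.0 CPM of H3K4me3 in fko, 28.8 CPM in mko1 and 44.9, 45.2 and 44.4 CPM in wild type. The spread within each group was under 1 CPM, and the log2 differences were -0.61 ± 0.0479 and -0.64 ± 0.0686 in fko and mko1 (edgeR adjusted p = 1.15e-33 and 2.52e-18). The row chr1:160888304-160892922 had 8.19, 8.5 and 7.86 CPM in fko, 8.74 CPM in mko1 and 15.8, 15.9 and 15.5 CPM in wild type. Its log2 differences were -0.94 ± 0.0697 in fko and -0.85 ± 0.0977 in mko1 (edgeR adjusted p = 5.42e-38 and 4.83e-16).

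Among rows that were higher, chr8:41272231-41272986 had 2.44, 2.59 and 2.57 CPM of H3K4me3 in fko, 1.22 CPM in mko1 and 0.298, 0.0423 and 0.163 CPM in wild type. The wild-type libraries held only 9, 1 and 6 counts, and mko1 stood midway. The differences were 3.81 ± 0.270 in fko and 2.76 ± 0.401 in mko1 (log2; edgeR adjusted p = 1.73e-41 and 1.96e-10). The adjoining fko-only peak, chr8:41271172-41272321, had 1.86, 2.60 and 1.84 CPM of H3K27me3 in fko, 1.67 CPM in mko1 and 1.19, 1.56 and 1.88 CPM in wild type, where the groups overlapped. A strong peak, chr1:39956535-39965346, with 0.0129 of its length in a fko-only peak, was higher in all knockout libraries, with 84.7, 79.9 and 83.7 CPM of H3K4me3 in fko, 88.1 CPM in mko1 and 66.2, 63.8 and 61.4 CPM in wild type, and log2 differences of 0.38 ± 0.0411 and 0.47 ± 0.0559 (edgeR adjusted p = 7.42e-18 and 5.60e-15).

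Differences in the 2 marks were only weakly correlated across fko-only regions, and no relation is read from this. Over the 821 regions with a tested H3K4me3 row, Pearson's r between the H3K27me3 and the H3K4me3 log2 difference was 0.0550 for fko and 0.0674 for mko1, where both marks are compared with wild type and regions are not independent replicates. Over 10715 shared peaks it was -0.161 for fko and 0.00494 for mko1.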

How the data were processed

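The submitters' processing notes name Trimmomatic, TopHat2, Bowtie2, SAMtools, bedtools, HTSeq, MACS2 and build mm9, with no versions; settings are not given in the sources used here. The deposited histone tables hold the authors' raw read counts per broad peak, wild-type and fko peaks listed one after the other, and the deposited RNA table holds raw counts per gene. The −log10 q of each peak and the fold enrichment of UTX peaks are the authors' values, as deposited, and so is each peak's score, which is 10 times −log10 q with decimals dropped and was not used.

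Here, counts on chromosomes 1 to 19 were scaled with TMM factors, filtered with filterByExpr and tested with edgeR 4.0.16 (quasi-likelihood, Benjamini-Hochberg over all rows) in R 4.3.3, with all 7 libraries of a mark in one fit of 3 group means. The SE was taken from the F statistic. DESeq2 1.42.0, other factors and filters, omitted libraries and a replicate block were alternatives. Overlaps (at least 1 bp) were computed in Python 3.11.15 and the code was tested on simulated data. The number of reads limits the precision, and intervals cover counting error only. HTSeq summary lines, 38.6 to 45.6% of the RNA table, were left out.

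Named regions are the 5 with the highest −log10 q, the 5 widest, the 5 with the smallest p and the 5 under UTX peaks of highest −log10 q, the longest runs, those of lowest −log10 q or just outside the rule, and 5 H3K4me3 rows per direction. Not every one is described. The regions and lists were chosen with earlier results of these data known. Input libraries were not used, and sequences of the regions are not shown.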

Additional observations from a re-analysis of the deposited data

Results flagged for a closer look

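The H3K27me3 level differed between mko1 and fko in 19 fko-only peaks (edgeR, adjusted p of 0.05), or 0.898% against 2.84% of all rows. All 19 were lower in mko1, the direction that the choice of peaks favours, and DESeq2 called 0 fko-only peaks. The H3K4me3 level differed in 164 rows on fko-only regions by the same edgeR test, or 11.5% against 11.9% of all rows. Among the H3K27me3 regions named above, mko1 minus fko was -1.90 at chr12:28222499-28223095 and -1.98 at chr15:74044591-74045204 (log2), each on 5 or 6 mko1 counts. Among H3K4me3 rows, mko1 was lower than fko by a log2 difference of -1.06 at chr8:41272231-41272986, -1.14 at chr2:154779932-154786237, -0.63 at chr10:125578478-125582421, -0.58 at chr10:38684731-38693814 and -0.52 at chr4:14546198-14550175. It was higher than fko by 0.87 at chr17:91491145-91492838, 0.26 at chr1:64162877-64169593, and 0.88 and 0.85 at the overlapping rows chr14:4518109-4518983 and chr14:4518123-4518742. At chr2:154779932-154786237 the H3K4me3 level was 13.5, 15.3 and 15.6 CPM in fko, 6.72 CPM in mko1 and 7.46, 8.51 and 8.21 CPM in wild type, so the female libraries stood apart from both male groups.

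Chromosome X lies outside the rule. There 3204 of 3443 fko peaks (93.1%) overlapped no wild-type peak, against 12.7% on the autosomes, in a comparison of females with males.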

How the results depend on the processing

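The number of fko-only peaks (2117) would be 0 if fko peaks with a −log10 q of at least 5 alone were taken. The 28 fko-only peaks called in mko1 against wild type became 14 at an adjusted p of 0.01 and 1 with DESeq2, and 19 to 31 without single libraries; the 19 called in mko1 against fko became 7 and 0, and 13 to 21. The median fko difference of 0.39 was 0.35 without scaling factors, 0.34 in fko rows only, 0.37 with factors from shared peaks and 0.39 to 0.41 without single libraries. H3K4me3 calls on fko-only regions numbered 749 in fko and 598 in mko1, 435 and 339 with DESeq2, 424 and 331 in wild-type-list rows only, and 587 to 740 and 518 to 630 without single libraries. The share of fko-only peaks with H3K4me3 was 19% where at least 50% of the H3K4me3 peak had to lie inside, 30.1% with H3K4me3 peaks of −log10 q of at least 5 and 41.9% at 500 bp to 2 kb, and that with UTX was 1.18% and 1.04% under the first 2 of these. The H3K4me3 share difference, fko minus wild type, was -0.0929 percentage points, -0.0363 with rows at least 50% inside a region, and -0.0860 to -0.101 without single libraries. Replicate numbers do not pair the samples: deviations of same-numbered libraries correlated at -0.00119, -0.00846 and 0.0165 for H3K27me3 and 0.105, 0.0164 and 0.0166 for H3K4me3. With a replicate block the calls numbered 21 (all higher, so that the 3 lower calls were lost) and 15 for H3K27me3 in mko1 against wild type and fko, and 788 in fko and 497 in mko1 for H3K4me3, and the median fko difference was 0.40. Among the called named regions no direction turned, while some uncalled values near 0 changed sign, among them the widest fko-only peak (-0.00, and 0.22 with the block); H3K27me3 calls in mko1 were lost in 25 of 143 values, 10 of them with DESeq2. Those 10 had no adjusted p from DESeq2. The cause of all these differences was not tested.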
